A study of Bos taurus with 10 samples.

Results

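*NANOG*, *POU5F1*, *SALL4*, *ZFP42*, *OTX2*, *ESRRB* and *UTF1* encode transcription factors and chromatin-bound regulators of the epiblast, and their transcripts were followed here embryo by embryo in bovine early blastocysts with and without editing of *SOX2*. The 7 genes were taken by symbol, and all 7 were found among the 20112 genes of the table. Each of the 10 libraries was made from a single embryo of *Bos taurus* produced by in vitro fertilization. The 5 WT embryos (named nc1 to nc5) were injected as zygotes with BE3 mRNA, which encodes a cytosine base editor, and no sgRNA. The 5 *SOX2* KO embryos (ko1 to ko5) received BE3 mRNA together with a mixture of sgRNAs that place stop codons in *SOX2*. Both groups thus carry the editor. The labels give the age as day 7.0 after fertilization and the methods give day 7.5 as the time of collection. All values are read counts per gene divided by the size factor of the embryo, called normalized read counts. Nothing in the labels says whether the embryos of a group came from separate fertilizations. Each p-value therefore refers to variation among these embryos and not to variation between fertilizations.

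The epiblast is the pluripotent part of the inner cell mass, from which the body of the embryo forms. OCT4 (the product of *POU5F1*), SOX2 and NANOG bind many of the same enhancers in pluripotent cells, including enhancers of their own genes, and OCT4 and SOX2 often bind as a pair on adjacent sites. SALL4 is a zinc finger protein that binds with OCT4 and NANOG and recruits the NuRD deacetylase complex. ZFP42, also called REX1, is a zinc finger protein related to YY1 and widely used as a marker of naive pluripotency. ESRRB is an orphan nuclear receptor of the naive network in the mouse, OTX2 is a homeodomain protein that in the mouse marks the passage to the primed epiblast, and UTF1 is a chromatin-bound factor of pluripotent cells. In cattle, OCT4 protein is still present in the trophectoderm of the early blastocyst, so a whole-embryo level of *POU5F1* is not a level of the epiblast alone. The study also saw NANOG and SOX2 proteins in trophectoderm as well as inner cell mass at day 7.5. The same limit therefore holds for the levels of *NANOG* and *SOX2*.

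In *SOX2* KO embryos *NANOG* fell most, *OTX2* fell to 0.224 of its WT mean, *ZFP42*, *POU5F1* and *SALL4* fell by smaller amounts, and no change passed the test for *ESRRB* and *UTF1*. Transcripts of *SOX2* itself, the edited gene, lay between 56.5 and 93.4 in WT, against 26.4 and 82.1 as the extremes of *SOX2* KO. The groups overlapped, and the log2 fold change of -0.55 did not pass (limma adjusted p = 0.167). A stop codon need not remove the transcript, so this level checks no genotype. According to the study, the blastocysts were genotyped from a part of their own cDNA. WT libraries held 2223670 to 5134855 reads, those of *SOX2* KO 2578284 to 4337342, and between 26.4% and 45.0% of them came from the 18S ribosomal RNA gene *RN18S1*. Since each library is a whole embryo, fewer epiblast cells, less RNA per epiblast cell and less in the trophectoderm cannot be told apart.

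*NANOG* was the most variable of the 7 genes. In WT, it had a normalized read count of 17.6 in nc1 and 17.9 in nc3, of 64.9 in nc5, of 101 in nc2 and of 148 in nc4. In *SOX2* KO, it was listed at 0 in ko2 and at 1.15 in ko5, with 5.81 in ko3, 6.68 in ko1 and 7.39 in ko4. The lowest WT embryo was above the highest *SOX2* KO embryo, although nc1 and nc3 lay nearer to the *SOX2* KO embryos than to nc4. The mean was 69.8 ± 55.8 in WT, against 4.21 ± 3.39 in *SOX2* KO (SD over n = 5 embryos). The WT spread exceeded counting error: the 18 reads of nc3 give a 95% Poisson interval of 10.6 to 28.3 normalized read counts, and the 190 reads of nc4 one of 127 to 170. In *SOX2* KO the reads per embryo ran from 0 to 9, and the interval of ko4, from 3.38 to 14.0, covers the values of ko1 and ko3. The same interval for the 0 reads of ko2 reaches 4.87, and the level of 3 reads in that library, taken as the limit for a count of 0, was 3.96. These intervals cover counting error only, since reads of Smart-seq2 carry no molecular identifiers and copies of a molecule count as separate reads.

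*POU5F1* had 7330 reads over the WT embryos and 3306 over the others, the most of the 7 genes, and varied little within groups. Mammalian genomes hold processed copies of *POU5F1* and *NANOG*, and how reads with several matches were counted is not given in the sources used here. Its levels in WT were 998 in nc2, 1087 in nc5, 1197 in nc3, 1298 in nc4 and 1481 in nc1. In *SOX2* KO they were 533 in ko1, 717 in ko5, 718 in ko4 and 823 in both ko2 and ko3. No *SOX2* KO embryo reached the lowest WT embryo, and the mean fell to 0.596 of that in WT. The embryo with the highest *POU5F1* in WT, nc1, was the one with the lowest *NANOG*.

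*SALL4* stood at 151 in nc5 and 158 in nc1, at 198 in nc4 and at 239 and 240 in nc2 and nc3. It stood at 104 in ko2, 115 in ko5, 120 in ko4, 143 in ko1 and 144 in ko3. The groups were close but did not overlap, with 144 in the highest *SOX2* KO embryo and 151 in the lowest WT embryo. *ZFP42* ran from 285 in nc3 over 403 in nc4, 464 in nc5 and 468 in nc1 to 657 in nc2. In *SOX2* KO it ran from 106 in ko5 over 171 in ko3, 219 in ko1 and 328 in ko4 to 333 in ko2. Here the groups overlapped, since ko2 and ko4 were above nc3.

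*OTX2* was the steadiest of the 7 genes in WT and among the least steady in *SOX2* KO. Its WT levels were 293 in both nc1 and nc3, 308 in nc5, 341 in nc4 and 356 in nc2, a coefficient of variation of 9.04%. Its *SOX2* KO levels were 25.1 in ko2, 55.8 in ko3, 66.8 in ko1, 89.5 in ko4 and 119 in ko5, with a coefficient of variation of 49.6%. Counting error alone would give about 5.42% and 12.3%. The gap between the highest *SOX2* KO embryo and the lowest WT embryo was wider than the whole range of either group.

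*ESRRB* had 193, 201, 266, 274 and 339 in nc2, nc5, nc1, nc4 and nc3, and 194, 238, 249, 263 and 388 in ko3, ko1, ko5, ko2 and ko4. The ranges overlapped almost wholly. *UTF1* had 89.0 to 117 in 4 of the WT embryos and 249 in nc3, and 99.1 to 107 in 4 of the *SOX2* KO embryos and 144 in ko3. In each group a single embryo stood apart from the other 4, and the *SOX2* KO range lay within that of WT.

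**Figure D1:**
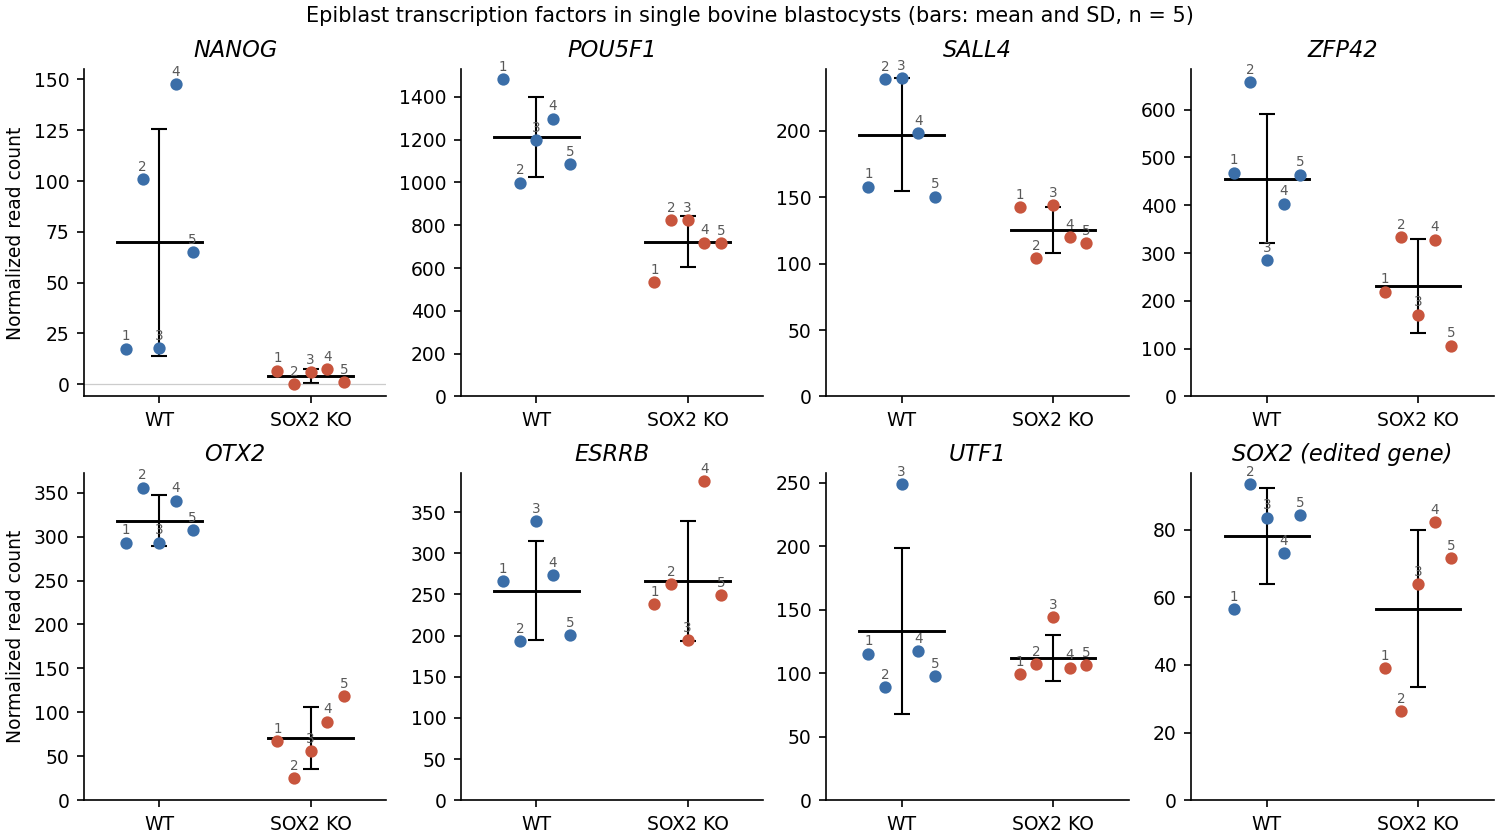
Normalized read count (linear axis) of the 7 genes and of *SOX2* in each WT and *SOX2* KO embryo, with points numbered as the embryos and black bars for the mean and SD of 5. *NANOG*, *POU5F1*, *SALL4* and *OTX2* show no overlap between groups, while *ESRRB* and *UTF1* lie in the same range in both.

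Groups were compared by limma, on a log2 scale with 1 added to each level, across all 20056 genes whose mean reached 1, with Benjamini-Hochberg adjustment over all of them. On this scale the fold change of a gene with few reads, such as *NANOG*, is understated. A gene was called where the adjusted p was at most 0.05 and the level changed at least 2-fold. By this rule 3 of the 7 genes were called lower, against 1.16% of all tested genes, and 0 were called higher, against 8.93%. In either direction the share of all tested genes was 10.1%. The log2 fold change was -3.70 ± 0.64 (± standard error) for *NANOG*, -2.31 ± 0.28 for *OTX2* and -1.04 ± 0.26 for *ZFP42*, with adjusted p from limma of 0.00127, 4.01e-05 and 0.0147. On the adjusted p alone, 5 of the 7 were lower and 0 higher, against 3.2% and 10.4% of all tested genes. The further genes were *POU5F1* at -0.75 (limma adjusted p = 0.00631) and *SALL4* at -0.63 (limma adjusted p = 0.0257). Without overlap between the groups, 4 of the 7 were lower, against 2.76% of all tested genes, or 9.17% in either direction. The genes were chosen with such results in view, so these counts describe them and are no test of the group.

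For *ESRRB* the log2 fold change was 0.06, with a 95% interval from -0.34 to 0.46, and for *UTF1* it was -0.16, with an interval from -0.64 to 0.33 (limma adjusted p = 0.861 and 0.673). Neither interval of this fit reaches a 2-fold fall. With the *RN18S1* share as a covariate *UTF1* was at -0.57 (standard error 0.26), so that bound holds for the main fit only. The median log2 fold change over all tested genes was 0.25, so both genes lay below the middle of the table. *SALL4* no longer passed on the adjusted p without nc2, nc4, ko2 or ko5 (limma adjusted p from 0.0505 to 0.0719) or after quantile normalization (0.0597), while its log2 fold change stayed between -0.62 and -0.56. *ZFP42* was near the 2-fold line and fell short of it under DESeq2 on recovered reads (-0.97), after quantile normalization (-0.96), and without nc2 (-0.90), ko3 (-0.97) or ko5 (-0.80), so that 2 of the 7 genes were called in each of these settings.

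**Figure D2:**
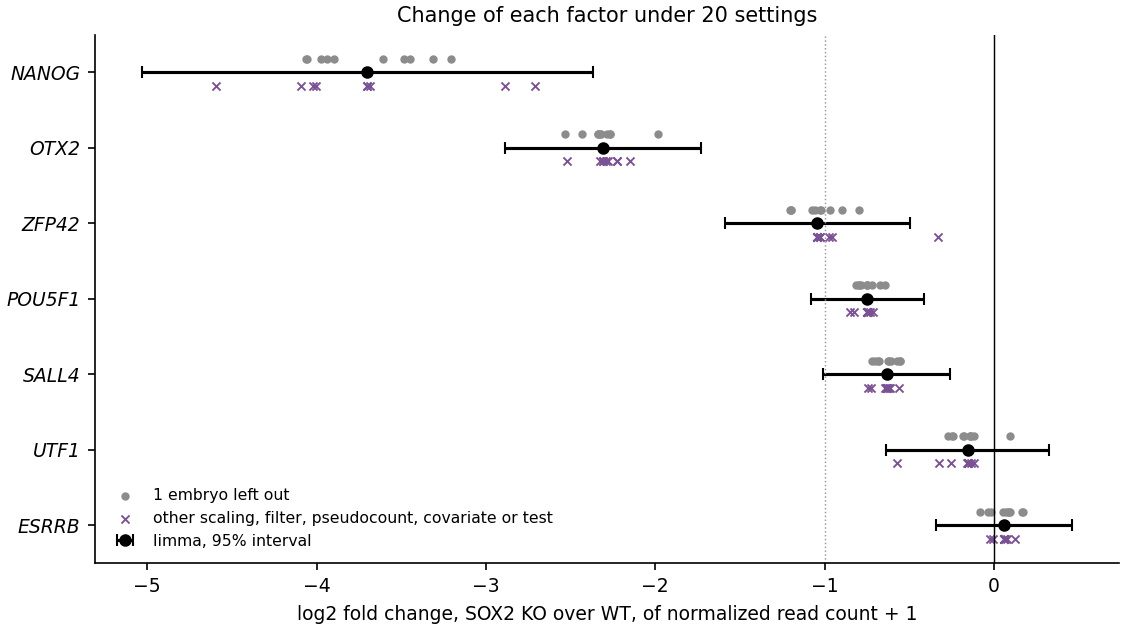
Log2 fold change of each gene, *SOX2* KO over WT, with its 95% limma interval (black), the 10 fits without a single embryo (grey) and the 9 other settings (crosses), the dotted line marking a 2-fold fall. *NANOG* and *OTX2* stay beyond that line in every setting, whereas *ESRRB* lies about 0 and *UTF1* between -0.57, with the *RN18S1* share as covariate, and 0.094, without nc3.

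To ask whether the genes fell by equal amounts, the log2 value of *POU5F1* in an embryo was subtracted from that of every other gene in the same embryo, which takes out the scaling between embryos. Relative to *POU5F1*, *OTX2* fell by a further log2 of 1.56 (mean ratio -1.92 ± 0.31 in WT and -3.48 ± 0.96 in *SOX2* KO, SD, n = 5 each, limma adjusted p = 0.000159), with no overlap between groups. Relative to *POU5F1*, the log2 difference of *NANOG* was -2.95 (limma adjusted p = 0.000397), with -3.84 at a pseudocount of 0.1 and -1.97 at a pseudocount of 5. In this ratio nc1, at -6.32, lay within the *SOX2* KO range of -9.69 to -6.12 and nc3, at -5.99, just above it, so the groups overlapped by 1 embryo. Of all tested genes, 0.439% were lower relative to *POU5F1* on the adjusted p, and 56.9% differed in either direction.

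No difference relative to *POU5F1* passed for *SALL4* and *ZFP42*. The difference in log2 ratio was 0.12 (standard error 0.24) for *SALL4* and -0.30 (standard error 0.27) for *ZFP42*, with limma adjusted p of 0.678 and 0.333. The value of *ZFP42* ran from -0.45 to -0.045 with 1 embryo left out and was 0.52 with the *RN18S1* share as a covariate. *ESRRB* rose relative to *POU5F1* by 0.81 (standard error 0.23, limma adjusted p = 0.00439) and *UTF1* by 0.59 (standard error 0.25, limma adjusted p = 0.0460), with overlapping groups for both. A rise of this kind was the rule in the table, as 56.4% of all tested genes were higher relative to *POU5F1*. The rise of *UTF1* no longer passed without any of nc1, nc2, nc4, nc5, ko1, ko3 or ko5, with limma adjusted p from 0.0654 to 0.126.

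**Figure D3:**
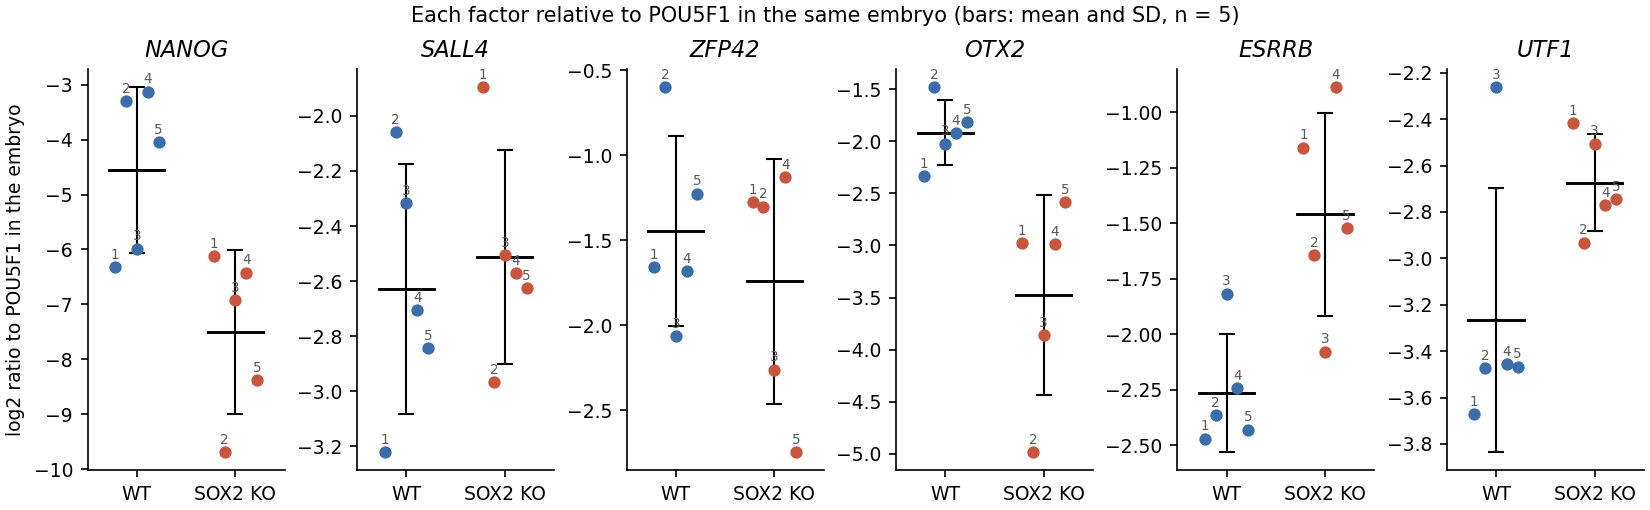
Log2 ratio of each gene to *POU5F1* within the same embryo, by group, with points numbered as the embryos and bars for the mean and SD of 5 (each panel has its own axis). *OTX2* separates the groups fully, *NANOG* does so except for nc1, and *SALL4* and *ZFP42* overlap widely.

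Within groups, no embryo was high or low in all 7 genes. Among WT embryos, nc3 was highest for *SALL4*, *ESRRB* and *UTF1* and lowest for *ZFP42*, and nc2 was highest for *ZFP42* and *OTX2* and lowest for *POU5F1*, *ESRRB* and *UTF1*. Among *SOX2* KO embryos, ko2 was lowest for *NANOG*, *SALL4* and *OTX2* and highest for *ZFP42*, while ko3 was highest for *POU5F1*, *SALL4* and *UTF1* and lowest for *ESRRB*. The embryo nc4 was never lowest and lay above the WT mean of log2 values for 5 of the 7 genes, and ko4 likewise was never lowest and lay above the *SOX2* KO mean of log2 values for 5.

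Covariation was measured over all 10 embryos after the mean of its group was taken from each log2 value, since groups of 5 are too small for a correlation of their own. Of the 21 pairs of genes, 10 had a positive and 11 a negative Pearson r, from -0.53 to 0.44. None passed a two-sided exact permutation test within groups, either before or after Benjamini-Hochberg adjustment over the 21 pairs (smallest exact p = 0.0731, smallest adjusted p = 0.763). By rank correlation 0 pairs passed as well. A p above the threshold with 10 embryos does not show that the genes vary independently.

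The pair with the smallest p was *ZFP42* and *UTF1*, with r = -0.53 (exact permutation p = 0.0731) and Spearman's rho = -0.44 (exact permutation p = 0.166). Without nc3 and ko5, the embryos farthest from the middle for *ZFP42*, r was -0.73. *NANOG* and *POU5F1* had r = -0.47 (exact permutation p = 0.207) and rho = -0.32 (exact permutation p = 0.398), which fell in size to -0.11 without nc1 and ko2. *NANOG* and *OTX2* had the highest r, 0.44 (exact permutation p = 0.250), and rho was 0.61 (exact permutation p = 0.0694). Both genes were on the same side of their group mean in 4 of 5 WT and 3 of 5 *SOX2* KO embryos. That pair depended on single embryos. Without ko5, in which *OTX2* was at its *SOX2* KO maximum and *NANOG* had 1 read, r rose to 0.76 and rho to 0.85 (exact permutation p = 0.00104 and 0.00174, adjusted over 21 pairs 0.0219 and 0.0365). Leaving out any other single embryo gave 0 pairs that passed, and the adjustment does not cover the choice of embryo. Without nc1 and ko2 but with ko5, r was -0.22. Without nc1, ko2 and ko5 it was 0.44, so the relation rests on a few embryos.

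Against the transcript level of *SOX2*, compared in the same way after the values were seen, *OTX2* had r = 0.80 (exact permutation p = 0.0454, adjusted over 7 genes 0.318) and rho = 0.64 (exact permutation p = 0.137). Among *SOX2* KO embryos, ko2 was lowest in both, ko1 and ko3 were intermediate, and ko4 and ko5 were highest in both. Without nc1 and ko2, r was 0.47. The other 6 genes had r between -0.30 and 0.48 with *SOX2*, and exact permutation p from 0.193 to 0.866.

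**Figure D4:**
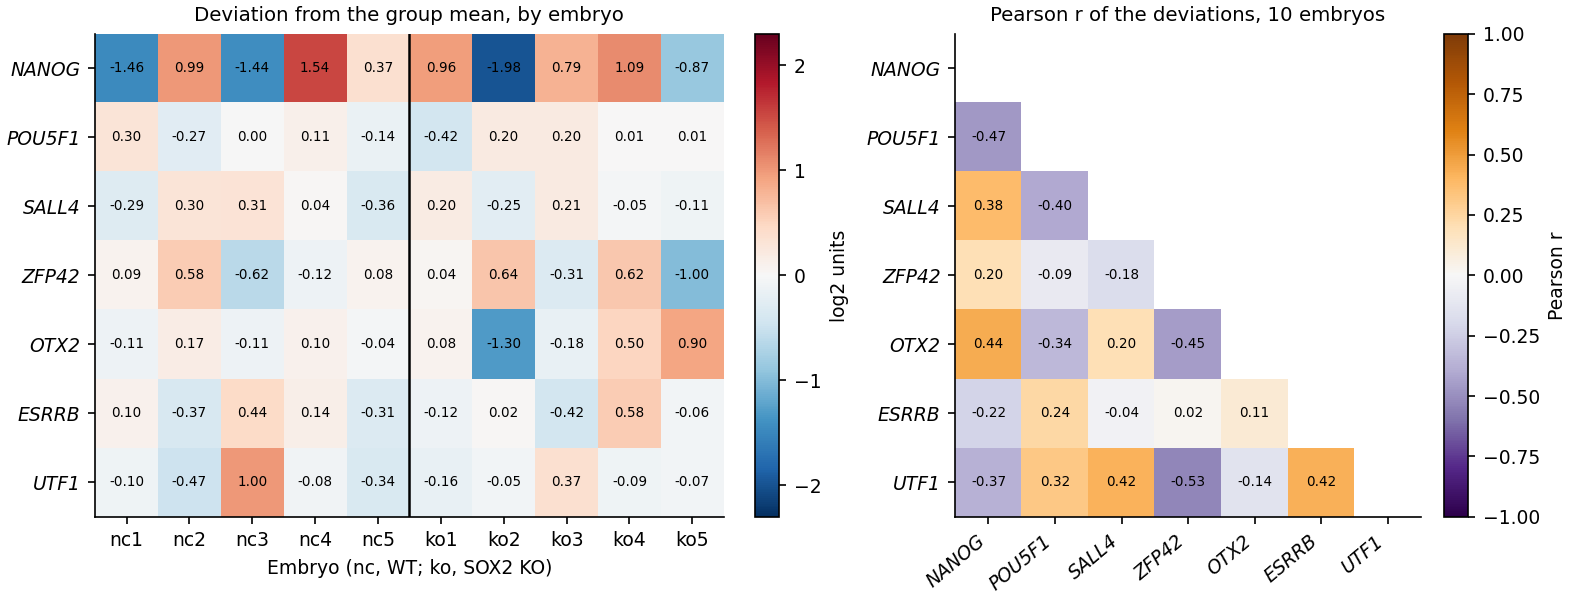
Left, deviation of each gene from its group mean in log2 units for every embryo. Right, Pearson r of these deviations over 10 embryos for the 21 pairs. No embryo's column is red or blue in all 7 genes, and the r values spread evenly about 0 from -0.53 to 0.44.

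For each gene, the 3 genes closest in their deviations from the group means were looked up among all genes with a name and a mean of at least 50 (6773 for *NANOG*, 6772 for each of the others). The measure is Pearson's r over 10 embryos, and the highest of so many values is large in any case. *NANOG* was most like *USP46* (0.96), *PAFAH2* (0.94) and *LRIF1* (0.90). *POU5F1* was most like *FAM173A* (0.92), *OAT* (0.91) and *PRRC1* (0.91), and *SALL4* most like *LPIN2*, *KLHL8* and *COG2* (0.88, 0.88 and 0.86). *OTX2* was most like *FAM43B* (0.90), *MRE11* (0.90) and *STAT3* (0.90). Of these, *FAM43B* and *STAT3* also fell between groups, by limma, at -2.51 and -1.54 on the log2 scale (adjusted p = 0.00320 and 3.13e-05). Likeness within groups did not always go with the same change, as *OAT* rose by 0.78 (limma adjusted p = 0.00384) while *POU5F1* fell. *FAM43B* had 102 to 175 in WT and 2.64 in ko2, 27.9 in ko3, 36.7 in ko1, 36.9 in ko5 and 58.3 in ko4, so that ko2 was lowest for it as for *OTX2*. *ESRRB* was most like *AVL9*, *SYNRG* and *WWC1* (0.94, 0.94 and 0.93). *WWC1* rose between groups by 0.51 (limma adjusted p = 0.0361), where no change passed for *ESRRB*.

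*UTF1* was most like *HCFC1* (0.98), *ATN1* (0.95) and *DOT1L* (0.95), and all 3 shared its high value in nc3. *HCFC1* had 912 in nc3 and 356 to 513 in the other WT embryos, and *DOT1L*, which methylates histone H3, had 262 against 78.6 to 110. No difference between groups passed for the 3 (limma adjusted p from 0.351 to 0.914). *ZFP42* was most like *PDCD6IP*, *ARL14EP* and *SRSF2* (0.97, 0.97 and 0.96), and 34 genes had an r of at least 0.9 with it, the most for any of the 7 genes. *SRSF2* fell between groups, as *ZFP42* did, at -0.64 (limma adjusted p = 0.0483).

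*ZFP42* also varied with a property of the library. Its level was lowest where the *RN18S1* share was highest in both groups, at 285 with a share of 37.0% in nc3 and at 106 with 45.0% in ko5. After group means were removed, r with that share was -0.90 (exact permutation p = 0.00181) and rho -0.82 (exact permutation p = 0.0127). Over the 21 relations between the 7 genes and 3 library measures the adjusted values were 0.0379 for r and 0.195 for rho, and r was -0.73 without nc3 and ko5. Of all tested genes, 0.0848% had an r as low. With the share as a covariate in limma, the log2 fold change of *ZFP42* was -0.33 ± 0.22 (± standard error, adjusted p = 0.533), while that of *OTX2* was -2.52 (limma adjusted p = 0.000983) and that of *POU5F1* -0.85 (limma adjusted p = 0.0398). *NANOG* kept a log2 fold change of -2.89 but no longer passed (limma adjusted p = 0.0917), and *SALL4* likewise had -0.75 (limma adjusted p = 0.130). The share itself was 26.4% to 37.0% in WT, against 32.5% to 45.0% in *SOX2* KO, and the covariate left 209 calls in the whole table of 2024. No relation of the other 6 genes to read depth, *RN18S1* share or number of detected genes passed after adjustment. *ZFP42* had r = -0.72 with the number of detected genes (exact permutation p = 0.0283, adjusted over 21 relations 0.297). That number was 15919 to 18092 in WT, against 17987 to 19813 in *SOX2* KO. Since group means were removed, these relations do not cover such differences between groups.

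Of 32 other genes known from the epiblast or from pluripotent cells, 25 were tested, and 4 of them were called lower and 0 higher, against 1.16% and 8.93% of all tested genes. The list was drawn up with earlier results of these embryos known. Its median log2 fold change was -0.49, against 0.25 for all tested genes. *DPPA3*, a maternal factor and germ cell marker that guards DNA methylation, had levels of 607 to 830 without *SOX2* editing and of 187 to 291 with it (log2 fold change -1.64, limma adjusted p = 4.86e-06). *PRDM14*, which represses differentiation genes in pluripotent and germ cells, had 36.0 to 80.1 and 15.8 to 25.6 (log2 fold change -1.53, limma adjusted p = 0.00168). *KLF17*, a zinc finger factor of the human naive epiblast, and *LEFTY2*, an inhibitor of Nodal signalling, were called with overlapping groups (limma adjusted p = 0.0288 and 0.0490). *LEFTY2* had at most 28.2 in WT and at most 5.57 in *SOX2* KO, and *KLF17* lost its call without nc4, nc5, ko3 or ko5, with a log2 fold change from -1.67 to -1.29 there. It also lost it with a minimum mean of 10 (limma adjusted p = 0.05004) and with the *RN18S1* share as a covariate (-1.42, limma adjusted p = 0.328). *DPPA2* and *TFAP2C* passed on the adjusted p alone, at -0.92 and -0.49. Without any of nc4, nc5, ko3 or ko5 only 2 of the 25 were called lower, and without ko4 2 were called higher.

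Of 14 tested relatives of the 7 genes within their own families, 0 were called lower and 2 were called higher, against 8.93% of all tested genes called higher, with a median log2 fold change of 0.44. *SALL2*, a paralog of *SALL4*, ranged over 7.95 to 16.8 in WT, against 14.8 to 68.6 in *SOX2* KO (log2 fold change 1.42, limma adjusted p = 0.0221). *POU6F1*, another POU factor, had 0.994 to 5.44 and 4.11 to 18.5 (log2 fold change 1.69, limma adjusted p = 0.0370). Both have few reads and overlapping groups. Without ko1 or without ko3, 0 relatives were called. *ESRRA* and *ESRRG*, the receptors closest to *ESRRB*, were at 0.75 and 0.43 on the log2 scale (limma adjusted p = 0.0704 and 0.0801), and *SALL3* had -0.45 (limma adjusted p = 0.195).

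Of 22 co-regulators known to bind these factors, 0 were called, against 10.1% of all tested genes, and 4 were lower on the adjusted p alone, against 3.2%. *HDAC2*, a deacetylase of the NuRD complex, had 163 to 297 in WT, against 81.9 to 148 in *SOX2* KO, with a log2 fold change of -0.94 (limma adjusted p = 0.00523). *RIF1*, a regulator of replication timing bound to OCT4 and NANOG complexes, had a mean of 973 ± 57.8 in WT, which fell to 590 ± 126 (SD of 5 embryos, adjusted p = 0.00513 by limma). *NCOA3*, a coactivator of ESRRB, had -0.50, and *ZNF281*, a zinc finger partner of NANOG, had -0.46 (limma adjusted p = 0.0288 and 0.0387). The other NuRD genes of the list, *HDAC1*, *CHD4*, *MTA1*, *MTA2*, *MTA3*, *MBD3*, *GATAD2A*, *GATAD2B*, *RBBP4* and *RBBP7*, did not pass, with *MTA3* at -0.66 and *HDAC1* at -0.48 the nearest to it (limma adjusted p = 0.0542 and 0.0685).

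**Figure D5:**
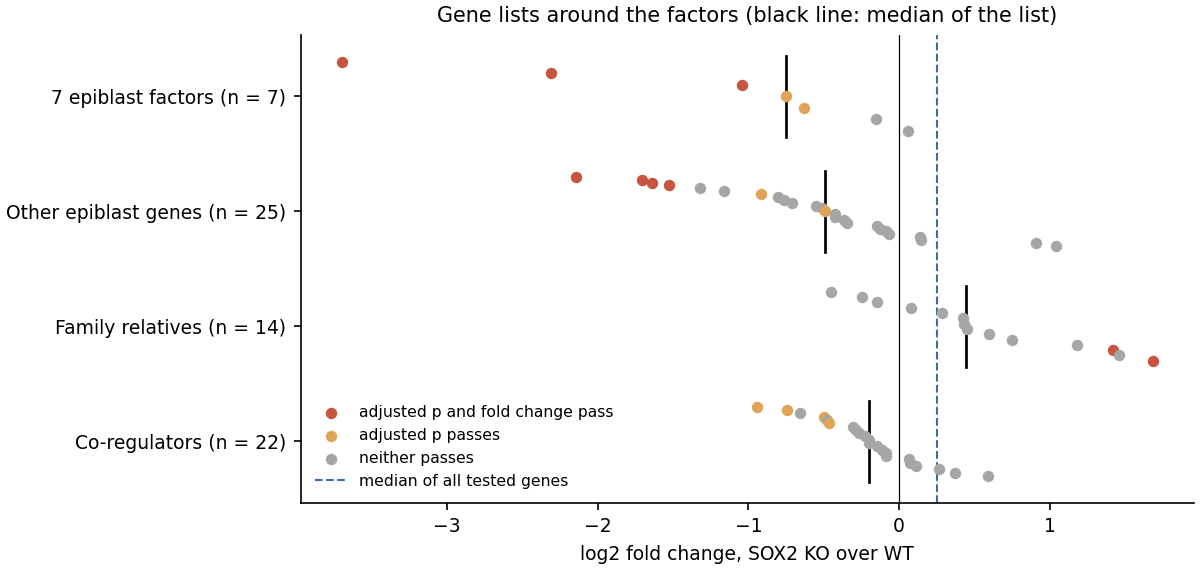
Log2 fold change, *SOX2* KO over WT, of the tested genes in 4 lists, coloured by whether they pass the limma adjusted p and the 2-fold threshold. List medians (black lines) are -0.75 for the 7 genes, -0.49 for other epiblast genes, 0.44 for relatives and -0.20 for co-regulators, against 0.25 for all tested genes (dashed).

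Markers of other cell types were measured in the same libraries. Of 12 trophectoderm genes 0 were called, against 8.93% of all tested genes called higher and 1.16% called lower. All 12 log2 fold changes were positive, with a median of 0.55, while 7444 of the 20056 tested genes were negative and their median was 0.25. *KRT18*, a keratin of the outer epithelium, passed on the adjusted p alone (0.73, limma adjusted p = 0.0394), and *CDX2*, a trophectoderm transcription factor, had 0.61 (limma adjusted p = 0.127). The summed level of the list, most of it from *KRT8* and *KRT18* (means of 17496 and 9100 in WT), was 26239 to 38916 in WT, against 36512 to 48943 in *SOX2* KO. Of 11 hypoblast genes 4 were called lower, among them *HNF4A* (-2.85) and *PDGFRA* (-2.01), and 1 was called higher, *APOA1* (1.71), against the same 1.16% and 8.93%. Of the 11 hypoblast log2 fold changes 7 were negative, and the median of the list was -0.12, against 0.25 for all tested genes. The summed hypoblast level was 9414 to 16749 in WT, against 5283 to 8014 in *SOX2* KO, and did not overlap. A sum follows its most abundant genes, so it does not speak for each gene of the list. Among all tested genes taken singly, 2.76% were lower without overlap. *SOX17* was not among the genes of the table used here. Of 7 cumulus cell genes 0 were called, against 10.1% in either direction, with sums of 31.1 to 85.5 in WT, against 57.0 to 94.6 in *SOX2* KO. Of 8 oocyte genes 1, *NLRP5*, was called higher, against 8.93%, from 0.611 to 3.77 on average, and the sums were 31.3 to 106 and 41.9 to 68.6. The part of these other cell types in the levels of the 7 genes was not tested.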

How the data were processed

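Single-embryo RNA-seq libraries (Smart-seq2, polyadenylated RNA) of 5 WT and 5 *SOX2* KO blastocysts were analysed. According to the submitters' processing notes and the methods, reads were trimmed with Trimmomatic, aligned to ARS-UCD1.2 with HISAT2, counted per gene with featureCounts and scaled with DESeq2. The deposited values are a normalized signal, the gene count divided by the size factor of the embryo. Of 201120 values, 100% were whole multiples of the value of 1 read (tolerance 0.001 reads), so the reads were recovered. Every gene had at least 11 reads in all. Library totals were 2223670 to 5134855 reads.

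Groups were compared with limma 3.58.1 (trend) in R 4.3.3 on log2(value + 1) for genes with a mean of at least 1, with 5 embryos per group, Benjamini-Hochberg adjustment, and a call at an adjusted p of at most 0.05 with a 2-fold change. Alternatives were pseudocounts of 0.1 and 5, equal totals without *RN18S1*, quantile normalization, no filter, a mean of at least 10, the log2 *RN18S1* share as covariate, DESeq2 1.42.0 and edgeR 4.0.16 on recovered reads, and each embryo left out. In simulated counts with 200 genes changed 4-fold among 19441, limma recovered 197 with 6 false calls. The changed genes were drawn from well expressed genes, with equal numbers raised and lowered and no effect of the *RN18S1* share. The simulation therefore does not cover genes with few reads, smaller changes or differences between libraries of that kind. Correlations used scipy 1.17.1 with exact permutation within groups. Poisson intervals are exact, at 95%.

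The 7 genes and all lists were chosen with earlier results of these data known. Named genes were the 7 genes, *SOX2*, the list genes that were called and some of the marker genes that were called. Up to 4 genes per list with the largest fold change were named too. So were the 3 genes most like each of the 7, among genes with a symbol and a mean of at least 50. Other named genes were chosen after their values were seen. No sequences or coordinates were used.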

Additional observations from a re-analysis of the deposited data

Results flagged for a closer look

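Among 34 groups of 5 values examined for a sample far from the others, 3 were picked out, where chance gives about 1.7 (1 in 20 groups). All 3 concern *UTF1*. In WT, nc3 had a normalized read count of 249 while the other embryos had 89.0 to 117. In *SOX2* KO, ko3 had 144 and the others 99.1 to 107. The log2 ratio of *UTF1* to *POU5F1* in nc3 was -2.26, against -3.67 to -3.46 in the other WT embryos, and it shares the value of nc3 with the first. The *RN18S1* share was 37.0% in nc3, the highest in WT, and 39.6% in ko3. Over all 10 embryos, after group means were removed, *UTF1* had r = 0.61 with that share (exact permutation p = 0.0467, adjusted over 21 relations 0.327), rho = 0.64 (exact permutation p = 0.0440) and r = 0.78 without nc3 and ko5. With the share as a covariate the log2 fold change of *UTF1* went from -0.16 to -0.57 (limma adjusted p = 0.330).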

How the results depend on the processing

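The limma differences of *OTX2* and *POU5F1*, and those of *NANOG*, *OTX2* and *ESRRB* relative to *POU5F1*, held under every alternative run, the *NANOG* ratio with values from -3.84 (pseudocount 0.1) to -1.97 (pseudocount 5). The *RN18S1* share as a covariate left 209 calls of 2024 in the table, 1 of the 7 genes called lower and 2 lower on the limma adjusted p, with *NANOG* at -2.89, *SALL4* at -0.75, *ZFP42* at -0.33, *ESRRB* at -0.023, *UTF1* at -0.57, and, relative to *POU5F1*, *ZFP42* at 0.52 and *UTF1* at 0.28. It left 2 other epiblast genes lower and 0 relatives higher. The cause was not tested. With *ZFP42* short of 2-fold, 2 of the 7 genes were called with quantile normalization, with DESeq2 and without nc2, ko3 or ko5. Calls in the table numbered 1185 with a pseudocount of 5, 1082 after quantile normalization and 692 where the mean had to reach 10. Quantile normalization gave *SALL4* -0.56, *UTF1* over *POU5F1* 0.59 without a call, and 1 relative higher. A pseudocount of 0.1 and the minimum mean of 10 likewise gave 0.59 without a call and 1 relative higher, and the latter 2 other epiblast genes lower. edgeR gave *ESRRB* -0.0076 and 1 co-regulator lower. Leaving out 1 embryo gave 930 (without ko5) to 3316 (without ko4) calls in the table, log2 fold changes of -0.72 to -0.56 for *SALL4*, -0.085 to 0.17 for *ESRRB* and -0.27 to 0.094 for *UTF1* (positive without nc3), and, relative to *POU5F1*, -0.039 to 0.26 for *SALL4* and 0.49 to 0.84 for *UTF1*. It gave 2 to 5 other epiblast genes lower and 0 to 2 higher, 0 to 3 relatives higher, 0 to 1 co-regulators lower and 0 to 1 correlated pairs. No paired analysis was possible because the labels do not tie embryos of one group to embryos of the other. *NANOG* rested on 0 to 9 reads per *SOX2* KO embryo, and its coefficient of variation there was 80.5%, against 49.4% from counting alone.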
